A study of Mus musculus with 18 samples.

Results

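Interferon-stimulated genes are the genes that a cell switches on when interferon binds its receptors, and 43 of them were followed here in the left ventricle of the mouse heart. The members were taken as a fixed list of gene symbols, matched by name in a table of 48709 genes, and the rule itself uses no measured value. The list was chosen with earlier results of these data known, so shares of members set beside those of all genes are descriptive. All 43 were in the table. They comprise 35 effectors of the kind induced by type I interferon and 8 GTPases best known as targets of interferon-gamma (Gbp2, Gbp3, Gbp7, Igtp, Irgm1, Irgm2, Iigp1 and Ifi47). The chemokine genes Cxcl9 and Cxcl10 were counted with the effectors, although interferon-gamma also induces Cxcl10 and is the chief inducer of Cxcl9.

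Polyadenylated RNA was sequenced from the left ventricles of male, wild-type C57BL/6J mice, 12 weeks old when treatment began, in 3 groups of 6 libraries, after 21 days of treatment. Control mice had saline in an osmotic pump and saline injections. The isoproterenol group had 30 mg/kg/day of isoproterenol, a β-adrenergic agonist used to provoke cardiac hypertrophy and fibrosis, from the pump together with saline injections. The third group had the same infusion and, each day, 50 mg/kg of minocycline by intraperitoneal injection. Minocycline is an antibiotic of the tetracycline class that also dampens inflammation. A group given minocycline without isoproterenol was not analysed here, so an action of minocycline on the unstressed heart cannot be read from these data. The protocol speaks of pooled RNA and does not say whether a library is 1 animal, so p-values measure the spread between libraries.

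Type I interferons signal through the receptor chains Ifnar1 and Ifnar2 and the kinases Jak1 and Tyk2 to a complex that holds Stat2 and Irf9 and binds interferon-stimulated response elements. Interferon-gamma signals through Ifngr1 and Ifngr2, and many of its target genes carry gamma-activated sites. The products of the induced genes sense or degrade viral RNA, block translation, tag proteins with Isg15 or attack vacuoles that hold pathogens, and many of them are expressed at a low level without infection.

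Total counts ranged from 14203041 to 22688664 per library and did not differ past the threshold between any pair of groups (2-sided exact permutation p = 0.0779, 0.102 and 0.665). Of all genes, 13281 had enough counts to be tested. At an adjusted p under 0.05, 6.94% of these rose and 5.62% fell with isoproterenol against control. With both drugs against control 10.2% rose and 9.05% fell, and added minocycline changed 0.0527%. The summed level of 6 ventricular cardiomyocyte markers was 49120 to 66340 CPM (counts rescaled so that libraries of unlike depth can be compared) over the 18 libraries, so the markers of the labelled tissue were present. Of the 15 macrophage markers, 10 rose with isoproterenol and 9 with both drugs against control, and their summed level was 237.1 to 298.0 CPM in control, 341.0 to 467.2 CPM with isoproterenol and 321.5 to 522.6 CPM with both drugs. Minocycline added to isoproterenol changed 0 of these 15 past the threshold, and the part of macrophage content in the values below was not tested. The 10 T and NK cell markers summed to 0.9494 to 1.159 CPM in control, 0.887 to 1.94 CPM with isoproterenol and 0.8051 to 1.753 CPM with both drugs. Most of that was Cd4 (317 counts), the tested marker, which did not pass, and Cd3e was at 0 in 11 of 18 libraries. The 4 B cell markers summed to 0.4304 to 1.491 CPM in control, 0.5967 to 1.901 CPM with isoproterenol and 0.3442 to 0.9466 CPM with both drugs. Of these 4, 0 could be tested. The 3 plasmacytoid dendritic cell markers summed to 0.712 to 1.713 CPM in control, 2.337 to 4.216 CPM with isoproterenol and 1.668 to 3.024 CPM with both drugs. Most of that was Pacsin1 (662 counts), the tested marker, which rose in both comparisons with control, while Siglech had 43 counts and Ccr9 had 5. The 5 neutrophil markers summed to 0.0 to 0.9572 CPM in control, 0.3168 to 2.983 CPM with isoproterenol and 0.23 to 1.373 CPM with both drugs, with S100a9 (178 counts) the tested marker, which did not pass, and Ly6g at 0 in all 18 libraries. Of 6 endothelial markers 0 passed with isoproterenol and 2 rose with both drugs (summed 512.4 to 663.0 CPM in control and 624.2 to 853.9 CPM with both drugs). Of 6 fibroblast markers 2 rose with isoproterenol and 5 with both drugs, and of the 6 cardiomyocyte markers 3 fell in each of these comparisons. Of all these lists 0 markers passed for added minocycline, and the part of these cell types was not tested either. In bulk tissue, fewer cells of a type and less RNA per cell cannot be told apart. Atrial Myl7 exceeded 80 CPM in 4 libraries (control 5, control 6, isoproterenol 5, and isoproterenol and minocycline 2), and counts of members without them are given beside each comparison. A fit without them has fewer libraries, and 681 of all genes passed in it with isoproterenol, against 1669 with all 18 libraries.

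Expression of the members was low to moderate. Per length, as the authors' deposited TPM values, the highest means over the 18 libraries were those of Ly6e, a membrane protein that restricts virus entry, at 65.0 TPM and of the small membrane protein gene Ifi27l2a at 62.2 TPM. Bst2, which tethers budding virus to the cell, followed at 18.01 TPM and Ifi27 at 14.4 TPM. Among the GTPases, Gbp2 and Iigp1 both averaged 10.2 TPM. At the other end were Mx1, the antiviral dynamin-like GTPase, at 0.173 TPM and Oas3 at 0.0837 TPM. The filter on low counts passed 41 members, 33 of the 35 effectors and all 8 GTPases. Oas3, a synthetase of the RNase L activator 2-5A, stayed under it with 12 counts over the control libraries, 39 over the isoproterenol and 45 over the libraries of both drugs, and at 0 to 15 counts in any library. Cxcl10, a T cell chemokine, stayed under it with 27, 64 and 30 counts in the same order, and it overlaps the far more abundant Art3 on the opposite strand, so its counts are uncertain.

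The genes of the interferons themselves were at or near 0 counts. Of 21 ligand genes in the table, 16 had 0 counts in all 18 libraries, and the others (Ifng, Ifna2, Ifna4, Ifnab and Ifnz) had 13 counts together, of which Ifng had 1. No ligand gene could be tested.

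To show which of the response elements stand before the members, RefSeq promoter windows on GRCm38.p6 (250 bases before to 50 bases after the start) were searched on both strands. The response element was read as GAAA, any 2 bases, then GAAA again (TTTC, any 2 bases and TTTC on the other strand), and the gamma-activated site as TTCNNNGAA, which is its own reverse complement. Windows were found for 31 of the 43 members. The response element was present in 18 of them (58.1%), against 3.99% of 27025 genes with a window, and the gamma-activated site in 9 (29%), against 9.55%. The response element was in 12 of 24 effectors and 6 of 7 GTPases, and the gamma-activated site in 6 of 24 and 3 of 7. These letters are a description of the sequence and do not show binding. The 170 bases before the start are printed for Ifit3 and Oas1a, which rose in both comparisons with control, for Rsad2, which fell with both drugs, and for the GTPase Irgm2, which did not pass the test; capitals mark the motifs found.
Ifit3 (chr19:34583359-34583528, + strand): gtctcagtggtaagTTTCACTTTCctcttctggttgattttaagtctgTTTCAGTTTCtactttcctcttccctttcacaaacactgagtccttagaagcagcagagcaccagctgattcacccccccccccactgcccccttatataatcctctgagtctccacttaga
Oas1a (chr5:120907526-120907695, - strand): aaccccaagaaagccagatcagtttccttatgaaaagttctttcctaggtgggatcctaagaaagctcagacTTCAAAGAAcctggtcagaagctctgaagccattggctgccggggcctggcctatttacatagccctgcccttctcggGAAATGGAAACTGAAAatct
Rsad2 (chr12:26456453-26456622, - strand): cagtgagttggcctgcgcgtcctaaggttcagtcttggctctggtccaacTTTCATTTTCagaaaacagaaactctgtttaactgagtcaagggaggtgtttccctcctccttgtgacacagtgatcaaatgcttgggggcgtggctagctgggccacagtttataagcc
Irgm2 (chr11:58214807-58214976, + strand): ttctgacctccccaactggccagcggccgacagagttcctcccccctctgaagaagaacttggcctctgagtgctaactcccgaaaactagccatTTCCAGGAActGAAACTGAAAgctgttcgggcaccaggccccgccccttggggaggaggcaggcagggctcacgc
Ifit3 holds a pair of response elements that begin at positions -156 and -122 from the start, and Rsad2 holds 1 at -120. In Oas1a overlapping matches begin at -20 and -14, with a gamma-activated site at -98. Irgm2 has a gamma-activated site at -75 and a response element at -64. The response element was in 3 of 6 members that rose in any comparison, 1 of 3 that fell and 14 of 22 (63.6%) of the others with a window. The gamma-activated site was in 1 of 6, 0 of 3 and 8 of 22 in the same order. Among members that changed and had a window, Irf7, Oasl2, Cxcl9, Ifi47 and Dtx3l had no match to either motif within it. Ifi27, Ifi27l2a, Iigp1, Oas2, Usp18 and Zbp1 also changed but had no window, so they were not searched.

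Isoproterenol was compared with control to describe the members after sustained β-adrenergic stimulation, and both drugs were compared with the same control libraries, so the 2 comparisons share them. With isoproterenol, 7 of the 41 tested members rose (17.1%) and 0 fell, against 6.94% of all tested genes that rose and 5.62% that fell in the quasi-likelihood test of edgeR (p adjusted by Benjamini-Hochberg), the source of every adjusted p given here. At an unadjusted p under 0.05, 15 of the 41 members were higher and 1 of 41 was lower. Of the 13281 genes, 1966 were higher (14.8%) and 1704 lower (12.8%) at that limit. The median log2 fold change of the members was 0.201, against 0.001 over all genes. All 7 rises were effectors (Ifi27, Ifi27l2a, Ifih1, Ifit3, Irf7, Oas1a and Oasl2), out of 33 tested, with a median of 0.21. Of the 8 GTPases 0 passed, 3 of them had an unadjusted p under 0.05, and their median was 0.189. Whether effectors and GTPases differed was not tested. Ifi27, Ifi27l2a and Irf7 had no overlap between the groups, which 3.66% of all genes showed in that direction. Without control 4 the number of rises was 4, and with the 4 Myl7-rich libraries set aside it was 3, with 0 falls. Rsad2 also fell without control 1, control 3 or isoproterenol 2 (adjusted p = 0.00635, 0.0496 and 0.0498).

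With both drugs against control, 10 of 41 members rose (24.4%), against 10.2% of all genes, and 4 fell (9.76%), against 9.05%. The share that fell was thus close to that of genes in general. At an unadjusted p under 0.05, 18 of the 41 members were higher and 4 of 41 were lower. Of the 13281 genes, 2261 were higher (17%) and 2182 lower (16.4%) at that limit. The rises were Ifi27, Ifi27l2a, Ifit3, Irf7, Oas1a and Oasl2 again, with Ifi47, Oas2, Usp18 and Zbp1, and the falls were Cxcl9, Iigp1, Dtx3l and Rsad2. Effectors, with Cxcl9 counted among them, made up 9 of the rises and 3 of the falls, with a median log2 fold change of 0.211. Of the GTPases, Ifi47 rose and Iigp1 fell, and the median was -0.056. Irf7, Ifi27l2a and Oasl2 lay above control without overlap (3.55% of all genes), and Cxcl9 and Iigp1 below it (3.59%). Without control 4 there were 6 rises and 2 falls, without isoproterenol and minocycline 2 there were 2 falls, and with the Myl7-rich libraries set aside there were 7 rises and 2 falls.

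Minocycline added to isoproterenol was assessed by comparing the isoproterenol groups with and without it. Of the 41 members 0 rose and 0 fell, against 0.00753% of all genes that rose and 0.0452% that fell (0.0527% in either direction). At an unadjusted p under 0.05, 2 of the 41 were higher (Ifi27l2a and Ifi35) and 4 lower (Cxcl9, Igtp, Irgm2 and Iigp1). Of the 13281 genes, 515 were higher (3.88%) and 495 lower (3.73%) at that limit. The median log2 fold change was -0.029 for the effectors and -0.163 for the GTPases, of which 7 of 8 were below 0. DESeq2 called 0 members too, but it gave an adjusted p for 1179 genes only, with none of these 6 among them. With the Myl7-rich libraries set aside 0 members passed. Cxcl9 alone showed no overlap between the groups, which 0.158% of all genes showed in that direction.

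**Figure D1:**
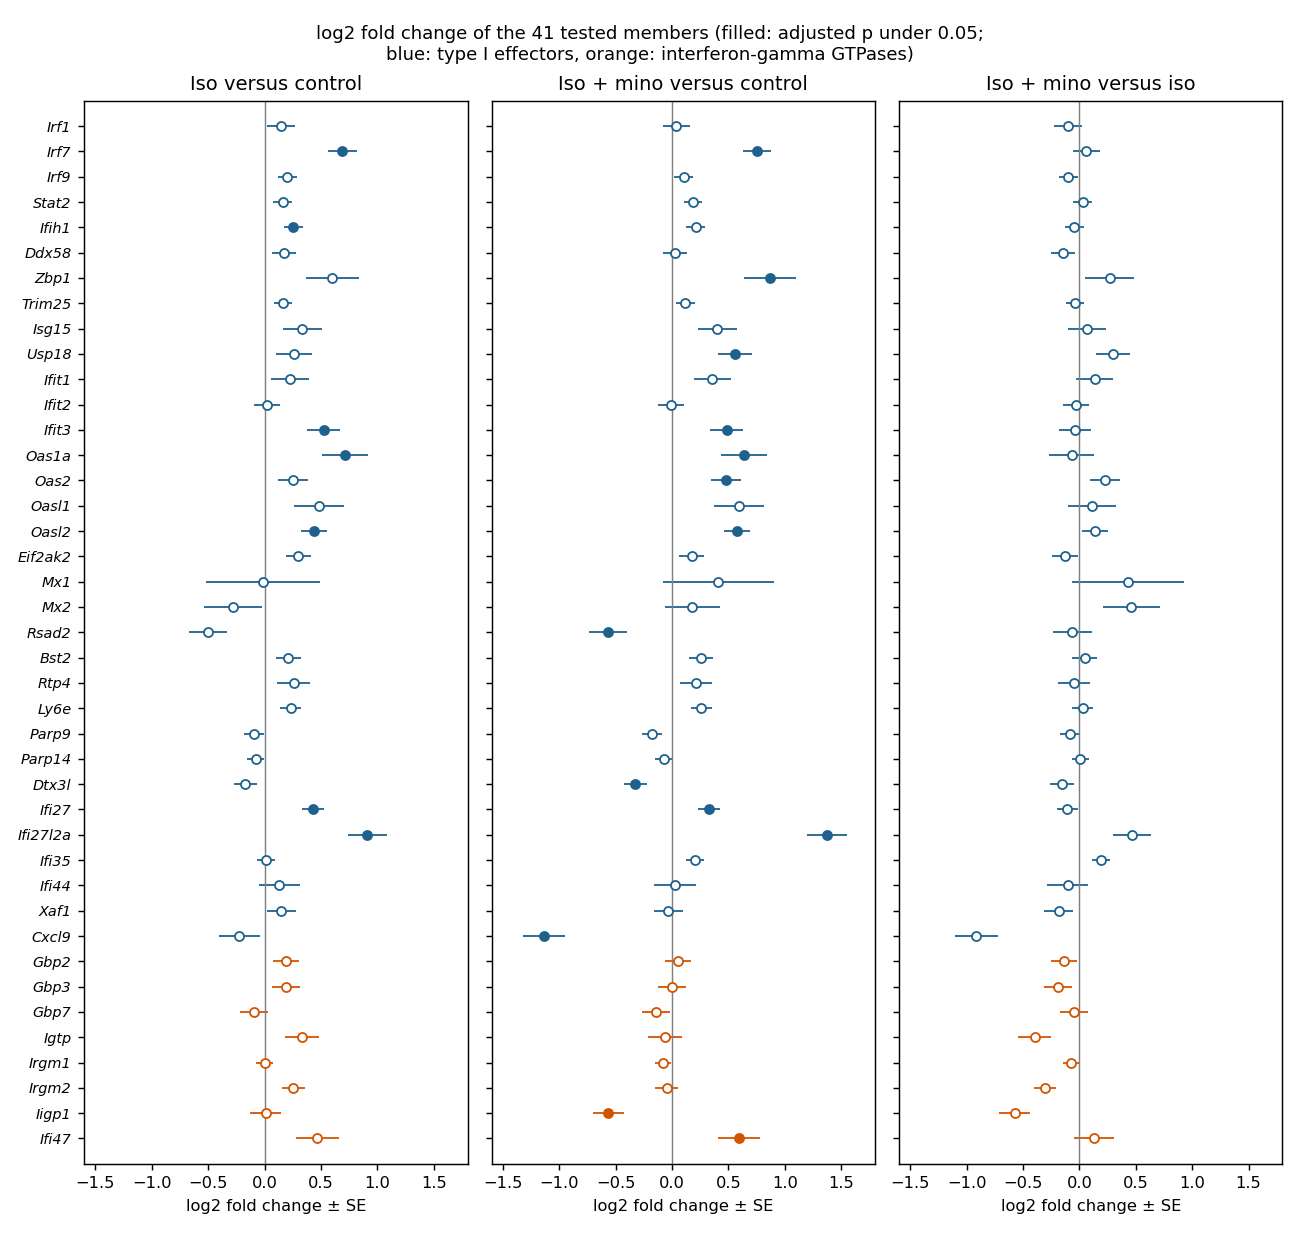
Each point is the log2 fold change (horizontal axis, with its standard error as a bar) of 1 tested member (vertical axis) in the comparison named above the panel. Filled points passed an adjusted p of 0.05, blue points are type I effectors and orange points are interferon-gamma GTPases. The filled points lie mostly to the right in both comparisons with control, and none is filled where minocycline was added to isoproterenol.

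Irf7, the transcription factor that amplifies type I interferon responses, was the only one of the 4 members encoding transcription factors that passed. Its gene lies on chromosome 7 from 141262706 to 141266481. It measured 5.53, 5.98 and 6.46 CPM (lowest, median and highest of 6 libraries) in control, 7.29, 9.88 and 11.9 CPM with isoproterenol, and 6.96, 10.3 and 12.2 CPM with both drugs. Every treated library lay above every control library, while the 2 treated groups overlapped over most of their range. The rise was 1.61-fold with isoproterenol (log2 0.69 ± 0.13 SE, adjusted p = 0.00105) and 1.68-fold with both drugs (log2 0.75 ± 0.13, adjusted p = 2.77e-04). Added minocycline changed it by 0.06 on the log2 scale, within an interval of -0.18 to 0.305 (2 SE on each side; adjusted p = 0.918). Irf7 overlaps Phrf1 on the opposite strand, which holds 264.7% as many counts, so its counts are uncertain. How strand was counted is not given in the sources used here. Phrf1 itself had a log2 fold change of 0.01 with isoproterenol (adjusted p = 0.953) and 0.17 with both drugs (adjusted p = 0.0648).

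The other transcription factors did not pass in any comparison. Irf1, a target of both interferon types and the most abundant of these 4 by CPM, measured medians of 17.8 CPM in control, 19.8 CPM with isoproterenol and 17.6 CPM with both drugs, with overlapping ranges. Irf9, the DNA-binding partner of Stat2, had medians of 12.1, 13.4 and 13.4 CPM (log2 fold change 0.20 with isoproterenol, adjusted p = 0.134), and it overlaps Rnf31 on the same strand, so its counts are uncertain. Stat2 had medians of 13.9, 14.8 and 15.9 CPM, and its log2 fold changes were 0.16 and 0.19 against control.

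Among sensors and feedback genes, Ifih1, the cytoplasmic receptor for long double-stranded RNA known as MDA5, rose with isoproterenol by a small amount. It measured 5.89, 6.48 and 7.12 CPM in control and 6.90, 7.79 and 8.68 CPM with isoproterenol. Isoproterenol 4 lay within the control range, and the other isoproterenol libraries lay above it. The rise was 1.19-fold (log2 0.26 ± 0.08, adjusted p = 0.0462), and it was lost in 10 of 18 fits that left out a library, with an adjusted p up to 0.112 without control 4. Those 10 were control 1, 3, 4 and 5, isoproterenol 1, 3, 5 and 6, and isoproterenol and minocycline 1 and 2. It also missed the threshold with DESeq2, upper-quartile scaling, no filter, only the 12 libraries compared, no mitochondrial genes, or the Myl7-rich libraries set aside (adjusted p = 0.0508 to 0.138). With both drugs the level was 6.79, 7.42 and 8.21 CPM and the difference from control did not pass (log2 0.21, adjusted p = 0.076). Added minocycline changed it by -0.04 on the log2 scale, which did not pass (adjusted p = 0.913).

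Zbp1, the sensor of Z-form nucleic acids that can start necroptosis, and Usp18, the protease that removes Isg15 and restrains the type I receptor, rose with both drugs against control. Zbp1 measured 0.430, 0.932 and 1.39 CPM in control, 1.19, 1.53 and 1.81 CPM with isoproterenol and 0.920, 1.90 and 2.27 CPM with both drugs. Of its 6 libraries with both drugs, 5 were above the whole control range and isoproterenol and minocycline 5 was within it. The difference was 1.83-fold (log2 0.87 ± 0.23, adjusted p = 0.0109) with both drugs, and 0.60 on the log2 scale with isoproterenol (adjusted p = 0.0953). Usp18 measured 1.35, 2.18 and 2.50 CPM in control, 2.08, 2.61 and 2.98 CPM with isoproterenol and 2.19, 3.18 and 3.81 CPM with both drugs. The ranges of the 3 groups overlapped. It rose 1.47-fold with both drugs (adjusted p = 0.0147) and not past the threshold with isoproterenol (log2 0.26, adjusted p = 0.299). Added minocycline changed Zbp1 by 0.27 and Usp18 by 0.30 on the log2 scale, neither past the threshold (adjusted p = 0.784 and 0.688). Neither rise passed with the Myl7-rich libraries set aside (adjusted p = 0.0896 for Zbp1 and 0.0626 for Usp18). The log2 fold changes in that fit were 0.81 and 0.57.

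The remaining sensors and feedback genes passed in no comparison. Trim25, the ubiquitin ligase that activates the RNA sensor Ddx58 and the most abundant of the group by CPM, had medians of 22.4, 24.0 and 23.9 CPM in control, isoproterenol and both drugs. Isg15, the ubiquitin-like modifier, had medians of 2.10, 2.57 and 2.74 CPM, with log2 fold changes of 0.33 (adjusted p = 0.216) and 0.40 (adjusted p = 0.101) against control. Ddx58, known as RIG-I, had medians of 10.2, 12.0 and 10.6 CPM.

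The IFIT and OAS families held the largest group of rises. Their 7 tested members included 3 that rose with isoproterenol (Ifit3, Oas1a and Oasl2) and 4 that rose with both drugs (the same 3 and Oas2). These shares were 42.9% and 57.1%, against 6.94% and 10.2% of all genes. The median log2 fold changes of the 7 were 0.439 and 0.483, and 0.113 for added minocycline. IFIT proteins bind foreign RNA, and OAS enzymes make 2-5A when double-stranded RNA activates them.

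Oasl2, an OAS-like protein with ubiquitin-like domains, measured 5.47, 7.27 and 7.79 CPM in control, 7.43, 9.32 and 11.5 CPM with isoproterenol and 8.74, 10.5 and 12.2 CPM with both drugs. The libraries with both drugs all lay above control, and isoproterenol 4 was the only isoproterenol library within the control range. The rise was 1.36-fold (log2 0.44 ± 0.12, adjusted p = 0.017) with isoproterenol and 1.49-fold (log2 0.58 ± 0.12, adjusted p = 0.00161) with both drugs. With the Myl7-rich libraries set aside the first did not pass (log2 0.41, adjusted p = 0.114).

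Ifit3 measured 5.72, 8.93 and 12.5 CPM in control, 11.7, 12.6 and 16.1 CPM with isoproterenol and 9.80, 13.2 and 15.6 CPM with both drugs. Its control range was wide, from control 1 at the bottom to a library inside the treated ranges. The rises were 1.44-fold (log2 0.52 ± 0.15, adjusted p = 0.0253) and 1.40-fold (log2 0.48 ± 0.15, adjusted p = 0.0272). The first missed the threshold when control 4, control 6 or isoproterenol 5 was left out (adjusted p = 0.0571 to 0.0648). It also missed the threshold with the Myl7-rich libraries set aside (log2 0.54, adjusted p = 0.0636). The second missed it when control 1, 3, 4 or 6 was left out, or isoproterenol and minocycline 2 or 4 (adjusted p = 0.05 to 0.0697), and in a fit of only the 12 libraries compared (adjusted p = 0.057). Ifit3 has a near-identical neighbour, Ifit3b, and the counts of the pair may be split between them. Ifit3b itself did not pass, with log2 fold changes of 0.28 with isoproterenol (adjusted p = 0.391) and 0.22 with both drugs (adjusted p = 0.474).

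Oas1a measured 1.41, 1.95 and 3.08 CPM in control, 2.57, 3.10 and 4.46 CPM with isoproterenol and 1.90, 3.31 and 3.93 CPM with both drugs. Each treated group overlapped control. The rises were 1.64-fold (log2 0.71 ± 0.21, adjusted p = 0.027) and 1.56-fold (log2 0.64 ± 0.21, adjusted p = 0.0327). The first missed the threshold when control 1, control 4, control 6, isoproterenol 3 or isoproterenol 6 was left out (adjusted p = 0.0529 to 0.07). The second missed it when control 1, 3, 4 or 6 was left out, or isoproterenol and minocycline 2, 3, 4 or 6 (adjusted p = 0.0524 to 0.0806), and with limma-voom (adjusted p = 0.0757). Oas1a belongs to a cluster of close copies such as Oas1g, so its counts are uncertain. Oas1g itself did not pass, with log2 fold changes of 0.22 with isoproterenol (adjusted p = 0.7) and 0.49 with both drugs (adjusted p = 0.275).

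Oas2 measured 8.18, 9.74 and 11.6 CPM in control, 8.81, 11.5 and 16.1 CPM with isoproterenol and 11.2, 13.1 and 16.2 CPM with both drugs. Only the library lowest with both drugs reached the control range. It rose 1.39-fold with both drugs (log2 0.48 ± 0.13, adjusted p = 0.0149) and not past the threshold with isoproterenol (log2 0.25, adjusted p = 0.229). Added minocycline changed it by 0.23 on the log2 scale, which did not pass (adjusted p = 0.714). Ifit1, Ifit2 and Oasl1 passed in no comparison, with log2 fold changes against control from -0.01 for Ifit2 with both drugs to 0.60 for Oasl1 with both drugs (adjusted p = 0.0606). Oasl1 passed without control 5 in both comparisons with control (adjusted p = 0.0249 with isoproterenol and 0.00676 with both drugs), and with both drugs when the Myl7-rich libraries were set aside (adjusted p = 0.0218).

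Of the other antiviral effectors only Rsad2 passed, and it was lower. Rsad2 encodes viperin, a radical enzyme that makes a chain-terminating nucleotide. It measured 8.42, 16.0 and 19.4 CPM in control, 8.44, 10.8 and 13.1 CPM with isoproterenol and 7.76, 10.1 and 12.7 CPM with both drugs. Control 1 lay at the bottom of the treated ranges, and 4 of 6 controls lay above all treated libraries. It fell 1.48-fold with both drugs (log2 -0.57 ± 0.17, adjusted p = 0.0243), and its log2 fold change with isoproterenol was -0.50 ± 0.17 (adjusted p = 0.0569, against 0.028 with DESeq2 and 0.0413 with limma-voom). The fall with both drugs missed the threshold when control 4, control 5 or isoproterenol and minocycline 2 was left out (adjusted p = 0.0552 to 0.0671). It also missed the threshold with the Myl7-rich libraries set aside (log2 -0.41, adjusted p = 0.201).

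Ly6e, the most abundant member, measured 105.0, 111.2 and 117.4 CPM in control, 114.2, 125.3 and 155.1 CPM with isoproterenol and 109.4, 125.7 and 161.4 CPM with both drugs. The groups overlapped, and the differences were 0.23 and 0.26 on the log2 scale (adjusted p = 0.109 and 0.0538). Ly6e passed with both drugs without isoproterenol 5 or isoproterenol and minocycline 3 or 5 (adjusted p = 0.0179 to 0.0461) and with DESeq2 (adjusted p = 0.0462), and with isoproterenol in a fit of the 12 libraries compared (adjusted p = 0.04). Mx2, a dynamin-like GTPase, had medians of 1.19, 1.12 and 1.423 CPM. Its difference for added minocycline was 0.46 on the log2 scale (adjusted p = 0.7). Bst2, Eif2ak2, Rtp4 and Mx1 passed in no comparison, and their log2 fold changes against control ran from -0.02 to 0.41, both for Mx1. Eif2ak2, the kinase PKR that halts translation, passed with isoproterenol without isoproterenol 5 (adjusted p = 0.0386). Bst2 passed with both drugs without isoproterenol and minocycline 5 (adjusted p = 0.012), as did Stat2 (adjusted p = 0.0423).

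In the ADP-ribosylation module the log2 fold changes of Parp9, Parp14 and Dtx3l were all below 0 against control. Dtx3l, a ubiquitin ligase that pairs with Parp9, measured 9.90, 14.5 and 15.5 CPM in control, 10.04, 12.5 and 13.5 CPM with isoproterenol and 8.80, 11.1 and 12.2 CPM with both drugs. With both drugs, the range overlapped that of control only through control 1, the lowest. It fell 1.25-fold with both drugs (log2 -0.33 ± 0.10, adjusted p = 0.0298). Its log2 differences with isoproterenol (-0.17, adjusted p = 0.285) and for added minocycline (-0.15, adjusted p = 0.747) did not pass. The fall with both drugs missed the threshold when control 3, 4 or 6 was left out, or isoproterenol and minocycline 2, 4 or 6 (adjusted p = 0.0515 to 0.0746). It also missed the threshold with the Myl7-rich libraries set aside (log2 -0.30, adjusted p = 0.149). Dtx3l and Parp9 overlap on opposite strands, so their counts are uncertain. Parp14, the most abundant of the 3 by CPM, had medians of 19.6, 18.7 and 18.2 CPM.

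Ifi27l2a had the largest log2 fold change of the 41 tested members in both comparisons with control. Its gene lies on chromosome 12 from 103442167 to 103443680, next to Ifi27. It measured 7.31, 10.2 and 12.7 CPM in control, 15.5, 17.6 and 24.9 CPM with isoproterenol and 17.3, 26.4 and 38.0 CPM with both drugs. Every treated library lay above every control library, and the treated groups overlapped each other. The rise was 1.88-fold with isoproterenol (log2 0.91 ± 0.18, adjusted p = 0.00223) and 2.59-fold with both drugs (log2 1.37 ± 0.17, adjusted p = 3.01e-05). The difference for added minocycline was 0.46 ± 0.17 on the log2 scale, with an interval of 0.128 to 0.799, and did not pass (unadjusted p = 0.0126, adjusted p = 0.524). Ifi27l2a has a close copy, Ifi27l2b, so its counts may be split.

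Ifi27, a small protein of mitochondrial and nuclear membranes, measured 10.2, 11 and 13.8 CPM in control, 14.1, 15.2 and 16.9 CPM with isoproterenol and 10.9, 14.4 and 17.1 CPM with both drugs. All isoproterenol libraries lay above control, and those with both drugs overlapped it. The rises were 1.35-fold (log2 0.43 ± 0.10, adjusted p = 0.0055) and 1.25-fold (log2 0.33 ± 0.10, adjusted p = 0.0231). The second missed the threshold when control 4, 5 or 6 was left out, or isoproterenol and minocycline 4 (adjusted p = 0.0522 to 0.0654). It also missed the threshold when only the 12 libraries compared were fitted (adjusted p = 0.0525). Neither rise passed with the Myl7-rich libraries set aside (log2 0.39 and 0.24, adjusted p = 0.0647 and 0.2). Ifi35, Ifi44 and Xaf1 passed in no comparison. Ifi35 had medians of 10.6, 11.2 and 13.0 CPM, and its difference with both drugs (log2 0.20, adjusted p = 0.0743) passed without control 2 or control 3 (adjusted p = 0.0428 and 0.0249).

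Cxcl9, a chemokine that draws T cells bearing Cxcr3 and is induced chiefly by interferon-gamma, was the member lowest with both drugs relative to control. Its gene lies on chromosome 5 from 92321347 to 92328079. It measured 2.21, 3.38 and 4.38 CPM in control, 1.96, 2.67 and 3.93 CPM with isoproterenol and 1.04, 1.52 and 1.79 CPM with both drugs. The libraries with both drugs lay below every library of the other groups, which overlapped each other. Against control it fell 2.20-fold with both drugs (log2 -1.14 ± 0.19, adjusted p = 2.83e-04). With isoproterenol alone the difference was -0.22 ± 0.18 (adjusted p = 0.446). Added minocycline gave -0.91 ± 0.19 on the log2 scale, with an interval of -1.297 to -0.528, and missed the threshold over all genes (unadjusted p = 1.06e-04, adjusted p = 0.0878).

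**Figure D2:**
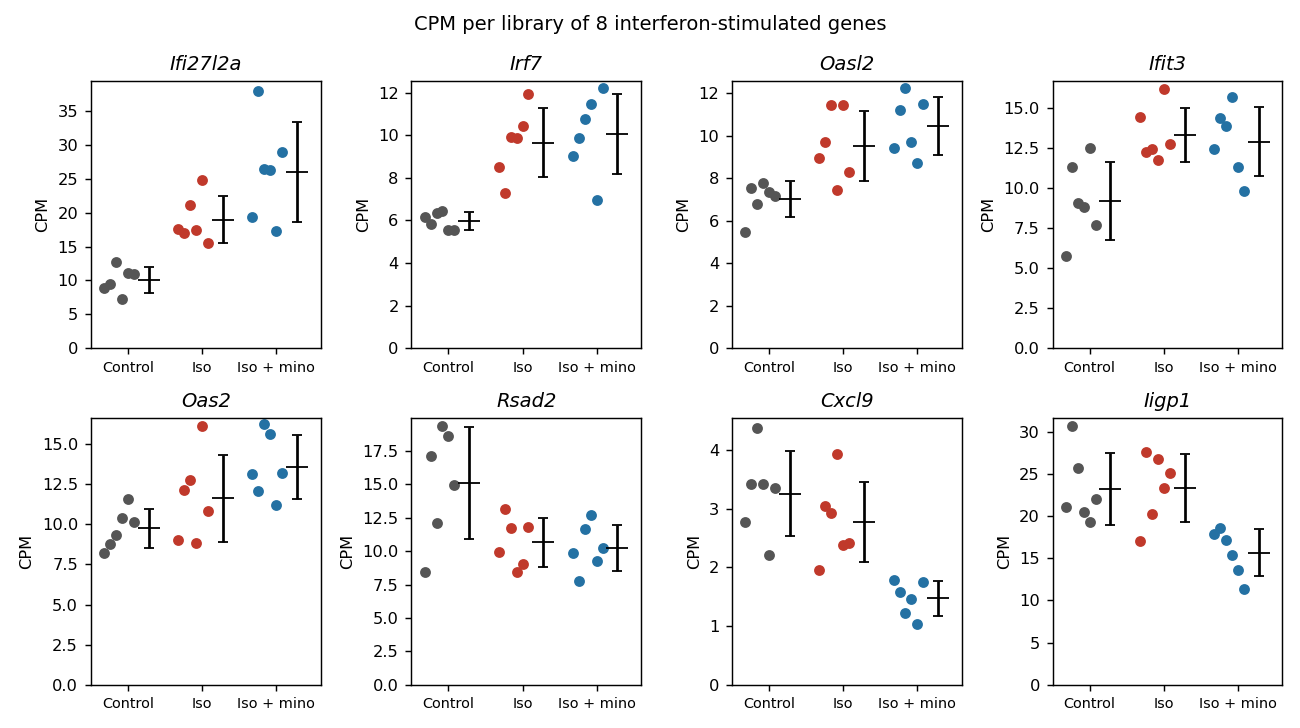
CPM (vertical axis, from 0) of 8 members in each library (points, 6 a group) with the group mean and SD beside them, for control, isoproterenol (Iso), and isoproterenol and minocycline (Iso + mino). Irf7 and Ifi27l2a lie above control in every treated library, and Cxcl9 and Iigp1 lie below control in every library with both drugs.

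The GTPases of the Gbp and Irg families assemble on membranes of pathogen-containing vacuoles. Of the 8, 0 passed with isoproterenol, where 6.94% of all genes rose and 5.62% fell. With both drugs 1 rose and 1 fell (12.5% each), against 10.2% and 9.05% of all genes. With 8 members, these counts do not set the GTPases apart from genes in general. Iigp1, the most abundant of them by CPM, measured 19.2, 21.5 and 30.7 CPM in control, 17.0, 24.2 and 27.6 CPM with isoproterenol and 11.3, 16.3 and 18.5 CPM with both drugs. All libraries with both drugs lay below control, and 1 isoproterenol library lay within their range. The fall against control was 1.48-fold (log2 -0.57 ± 0.14, adjusted p = 0.00722). With isoproterenol alone the difference was 0.01 (adjusted p = 0.977). Added minocycline gave -0.57 ± 0.14 (interval -0.851 to -0.299), which did not pass (unadjusted p = 4.85e-04, adjusted p = 0.23).

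Ifi47, another member of the Irg family, measured 1.28, 1.88 and 2.34 CPM in control, 2.04, 2.55 and 3.04 CPM with isoproterenol and 1.73, 2.69 and 4.13 CPM with both drugs. The groups overlapped. It rose 1.51-fold with both drugs (log2 0.60 ± 0.19, adjusted p = 0.029), and the difference with isoproterenol was 0.47 (adjusted p = 0.108). Added minocycline changed it by 0.13 on the log2 scale, which did not pass (adjusted p = 0.88). The rise with both drugs missed the threshold when control 3 or 4 was left out, or isoproterenol and minocycline 1 or 6 (adjusted p = 0.0516 to 0.0826). It also missed the threshold in a fit of only the 12 libraries compared (adjusted p = 0.0533). With the Myl7-rich libraries set aside it did not pass either (log2 0.65, adjusted p = 0.0947).

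Irgm2, a regulator of the other Irg proteins, had medians of 15.5, 19.2 and 15.5 CPM, with log2 differences of 0.25 with isoproterenol (adjusted p = 0.0964) and -0.30 for added minocycline (adjusted p = 0.469). Igtp had medians of 10.7, 13.0 and 10.7 CPM, with differences of 0.33 (adjusted p = 0.152) and -0.40 (adjusted p = 0.535). Both passed with isoproterenol without control 2 (adjusted p = 0.0101 for Irgm2 and 0.0403 for Igtp). They overlap each other on the same strand, so their counts are uncertain and they are not 2 separate counts of the same pattern. Gbp2, Gbp3, Gbp7 and Irgm1 passed in no comparison, and their log2 differences ran from -0.19 (Gbp3, added minocycline) to 0.19 (Gbp2 and Gbp3, isoproterenol).

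The 2 classes were also averaged within each library. For each member the log2-CPM was centred on its mean over the 18 libraries, and the centred values were averaged. The effectors averaged -0.444 to 0.001 in control, 0.009 to 0.17 with isoproterenol and -0.198 to 0.261 with both drugs. The GTPases averaged -0.199 to 0.248, -0.077 to 0.269 and -0.377 to 0.065 in the same order. Control and isoproterenol did not overlap for the effectors, while all 3 groups overlapped for the GTPases. Control 1 was the lowest of all 18 libraries in 12 of 41 members, control 6 in 7, and control 5 and isoproterenol and minocycline 5 in 6 each.

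**Figure D3:**
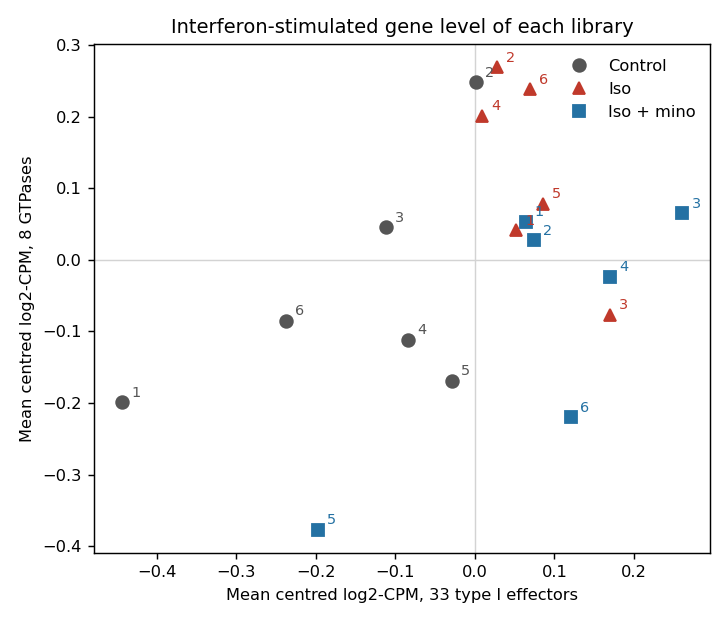
Mean centred log2-CPM of the 33 tested type I effectors (horizontal axis) and of the 8 GTPases (vertical axis) in each of the 18 libraries, numbered within their group. Controls lie at or left of 0.001 on the horizontal axis and isoproterenol libraries right of it, and isoproterenol and minocycline 5 lies apart from its group at the lower left.

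The rest of the pathway was read from a list of 108 symbols, of which 105 were in the table and 79 could be tested. With isoproterenol 13 rose (16.5%) and 3 fell (3.8%), with both drugs 22 rose (27.8%) and 3 fell, and with added minocycline 0 passed (5 higher and 4 lower at an unadjusted p under 0.05). The background shares, for adjusted and unadjusted p, are those given for the members in each comparison. At the receptors, Ifngr2, the second chain of the interferon-gamma receptor, measured 84.8, 94.2 and 112.5 CPM in control, 62.3, 67.4 and 80.8 CPM with isoproterenol and 40.4, 61.0 and 65.6 CPM with both drugs. Every treated library lay below every control library. It fell 1.39-fold (log2 -0.48 ± 0.11, adjusted p = 0.00657) and 1.70-fold (log2 -0.76 ± 0.11, adjusted p = 6.92e-05). Il10rb, shared by the receptors for interferon-lambda and interleukin-10, also fell in both comparisons (log2 -0.31 and -0.28, adjusted p = 0.0135 and 0.0162). Ifnar1, Ifnar2 and Ifngr1 did not pass, with log2 differences against control of 0.01 and 0.05, 0.11 and 0.12, and 0.20 and 0.20.

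Downstream of the receptors, Jak1 did not pass (log2 -0.05 and -0.23 against control, adjusted p = 0.748 and 0.0567). Tyk2 rose by 0.27 and 0.29 on the log2 scale (adjusted p = 0.0244 and 0.0125). Socs3, an inhibitor of cytokine receptors that Stat3 induces, measured 2.83, 3.25 and 4.12 CPM in control, 5.42, 6.59 and 9.20 CPM with isoproterenol and 5.51, 7.22 and 10.2 CPM with both drugs. No treated library reached down to control. It rose 2.12-fold (adjusted p = 1.96e-04) and 2.31-fold (adjusted p = 3.82e-05), and Stat3 rose as well (log2 0.43 and 0.41, adjusted p = 0.00156 and 0.00164). Ptpn2, a phosphatase of Jak kinases and STATs, rose with both drugs (adjusted p = 0.0391) and had an adjusted p of 0.316 with isoproterenol.

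Of 36 other induced effectors 9 rose with isoproterenol and 11 with both drugs. Lgals3bp, a secreted glycoprotein, measured 19.7, 22.4 and 27.5 CPM in control, 36.3, 38.7 and 44.0 CPM with isoproterenol and 33.4, 42.6 and 44.9 CPM with both drugs, without overlap with control. Its rises were 1.75-fold (adjusted p = 2.67e-06) and 1.8-fold (adjusted p = 1.11e-06). Ifitm3, which blocks fusion of virus with endosomes, rose 1.40-fold and 1.56-fold (adjusted p = 0.00244 and 1.16e-04). Ifitm2, Ifi204, Ifi205, Mnda, Slfn2, Slfn8 and Sp110 also rose in both comparisons, by 0.34 to 0.97 on the log2 scale. Ifitm1 and Shisa5 rose with both drugs (adjusted p = 0.0401 and 0.00845).

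Of 19 tested sensors and adaptors 1 rose and 1 fell with isoproterenol, and 7 rose and 1 fell with both drugs. Irf5, a transcription factor of Toll-like receptor signalling in myeloid cells, rose in both comparisons (log2 0.60 and 0.52, adjusted p = 0.0138 and 0.0225). Adar, Dhx58, Irf2, Myd88, Tlr7 and Tmem173 rose with both drugs, with adjusted p from 0.0136 for Myd88 to 0.0486 for Tmem173, which encodes the adaptor STING. Ticam1, the adaptor TRIF, fell with both drugs (log2 -0.48, adjusted p = 0.00545), and Samhd1, which depletes nucleotides, fell with isoproterenol (log2 -0.22, adjusted p = 0.0465). Of the 9 other GTPases tested, 0 passed in any comparison. At an unadjusted p under 0.05 the number was 0 with isoproterenol, 0 for added minocycline and 1 with both drugs, and their medians were 0.171, -0.181 and -0.162 on the log2 scale.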

How the data were processed

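Left ventricular RNA of 18 libraries, 6 a group, was analysed from 1 deposited table of counts per gene, with the authors' deposited TPM used only for levels between genes. Per the labels' protocols, reads were trimmed and analysed in CLC Genomics Workbench 21.0.3, and edgeR is named in the submitters' processing notes. Mapping, build and strand were not given in the sources used here. Columns were matched to libraries by the number in the description field, and 0 columns of counts matched no library. Of the 43 members, 40 have the same start and end as in GENCODE M21 (GRCm38), and coordinates are those of the deposited table.

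For the tests, the deposited counts went into edgeR 4.0.16 under R 4.3.3 (filterByExpr, TMM, estimateDisp, robust glmQLFit, glmQLFTest) in 1 fit of 18 libraries with 1 mean per group. Adjustment ran over all 13281 genes tested, 2-sided, and a gene passed at an adjusted p under 0.05. The biological coefficient of variation was 13.2%. SE is the absolute log2 fold change over the square root of F. CPM uses TMM-scaled totals, and log2-CPM has a prior count of 2. DESeq2 1.42.0 and limma 3.58.1 (voom with quality weights) were alternatives. Others were RLE or upper-quartile scaling, no filter, 1 CPM in 6 libraries, only the 12 libraries compared, no mitochondrial genes and each library left out. A fit without the 4 libraries over 80 CPM of Myl7 was chosen after seeing the data. The test script was tested on simulated data.

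All members that passed in a comparison are named, with the most abundant by CPM and the smallest p of each role group. Of the pathway list, genes that passed and the main receptors and kinases are named. A further gene of that rule is not reported here. The members, lists and tests were chosen with earlier results of these data known. A gene was reported as uncertain where an overlapping gene holds at least 20% as many counts.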

Additional observations from a re-analysis of the deposited data

Results flagged for a closer look

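In 6 of 123 groups of 6 libraries (41 members in 3 groups), 1 library stood apart from the other 5 past Dixon's critical value, which chance alone does in about 1 in 20 groups. Isoproterenol 3 was highest of its group in Stat2, at 18.74 CPM against 13.9 to 15.71 CPM, and in Rtp4, at 8.303 CPM against 5.541 to 6.132 CPM. Isoproterenol and minocycline 5 was lowest of its group in Zbp1, at 0.9201 CPM against 1.836 to 2.272 CPM, and in Bst2, at 7.763 CPM against 11.14 to 12.15 CPM. Control 1 was lowest in Usp18, at 1.353 CPM against 2.131 to 2.501 CPM. Control 2 was highest in Irgm2, at 21.57 CPM against 14.04 to 16.07 CPM.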

How the results depend on the processing

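Of 21 member calls, 8 held in all 27 alternatives: Ifi27l2a and Irf7 with isoproterenol, and Cxcl9, Ifi27l2a, Iigp1, Irf7, Oas2 and Oasl2 with both drugs, both against control. The counts of Irf7 remain uncertain through its overlap with Phrf1. None of 44 member results with an unadjusted p under 0.05 changed direction. Members that rose with isoproterenol numbered 7, 4 to 9 with a library left out and 3 with the Myl7-rich libraries set aside. Those that fell numbered 0, 0 to 1 with a library left out, and 1 (Rsad2) by DESeq2 and by limma-voom. With both drugs, 10 rises became 6 to 13 and 4 falls became 2 to 4 with a library left out, and there were 2 falls with the Myl7-rich libraries set aside. Added minocycline gave 0 members in every alternative, although DESeq2 left most genes without an adjusted p. Over all genes, isoproterenol gave 1669 calls, 1079 to 1877 with a library left out and 681 with the Myl7-rich libraries set aside. Both drugs gave 2557, 1789 to 2930 and 1369. Added minocycline gave 7, 1 to 13 with a library left out, 33 by DESeq2, 2 with 12 libraries and 1 with the Myl7-rich libraries set aside. The cause of these differences was not tested. No paired analysis was possible because the library numbers in the labels are not shared between groups. Levels near 1 CPM rest on few counts, which limits Zbp1, Mx1, Mx2 and Oasl1. These alternatives were run for the members and for the counts over all genes, not for the other pathway genes.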
